A study of Mus musculus with 6 samples.

Results

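CXC chemokines are small secreted proteins that attract leukocytes, and 8 of their genes, Cxcl1, Cxcl2, Cxcl3, Cxcl5, Cxcl9, Cxcl10, Cxcl14 and Cxcl16, were examined in mouse bone marrow mesenchymal stem cells after knockdown of RIOK3, a RIO-family kinase. The genes were chosen by symbol, and all 8 were among the 22030 genes of the count table. Messenger RNA, prepared with a stranded kit, was sequenced in 3 knockdown libraries and 3 control libraries. The knockdown cells are described as stable lines made with lentivirus, although the library titles carry the prefix si and the design text also speaks of a knockout. The control libraries are titled siNC, described as blank controls, and labelled with a wild-type genotype. Nor do the sources used here state the passage, clonality or medium of the cells, the donor strain or when they were harvested. Nothing in the labels says that replicates came from separate cultures, so p-values reflect only how these libraries vary, which may be technical.

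CXC chemokines act through G protein-coupled receptors on their target cells. Cxcl1, Cxcl2, Cxcl3 and Cxcl5 carry an ELR motif ahead of the CXC cysteines, signal through CXCR2 and draw neutrophils out of the marrow and into inflamed tissue. Cxcl9 and Cxcl10 lack that motif, are induced by interferons and bind CXCR3 on activated T cells and natural killer cells. Cxcl16 is made as a membrane-bound ligand of CXCR6 that can be shed, and Cxcl14 is a chemokine of epithelia and other tissues. In marrow stroma, transcription of the ELR ligands is driven by interleukin-1, tumour necrosis factor and Toll-like receptor signals through NF-kB, and their transcripts are short-lived.

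The knockdown libraries held between 28327612 and 30517261 counts and the control libraries between 31089006 and 32569544. Riok3 (ENSMUSG00000024404.8), the targeted gene, was at 33.6 ± 3.12 CPM in knockdown and 157 ± 31.1 CPM in control libraries, a level 4.68-fold lower (SD, n = 3 each, log2 fold change −2.23 ± 0.178 SE, edgeR adjusted p = 0.000127). CPM is the library-size-scaled count, here with TMM factors, and a 3-count floor stood at 0.0901 to 0.0966 CPM in knockdown and 0.101 to 0.108 CPM in control libraries. Replicates correlated at a Spearman rho of 0.996 to 0.997 among knockdown libraries. In the control group, replicates 1 and 3 correlated at 0.996, but replicate 2 correlated with them at 0.963 and 0.968 and so stood apart. The groups also differed in how counts followed base composition. Per 10 percentage points of transcript GC content, log2 CPM, taken against the average library, changed by 0.564 to 0.662 in knockdown and by −0.794 to −0.450 in control libraries. Of all genes, 13067 passed the filter on low counts, and 48% of them differed at an adjusted p under 0.05.

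Promoters are shown for Cxcl1 and Cxcl2, which fell strongly, for their relative Cxcl3, and for Cxcl10, which fell less. RefSeq promoters of build GRCm38.p6, from 250 bases before to 50 bases after the start, were found for 6 of the 8 members, all but Cxcl5 and Cxcl16. Capitals mark matches to the NF-kB consensus, the core of the interferon-stimulated response element (a pair of TTTC runs with any 2 bases between them), the AP-1 motif TGANTCA and the TATA box TATAAA on either strand.
Cxcl1 promoter, chr5:90890995-90891294, plus strand: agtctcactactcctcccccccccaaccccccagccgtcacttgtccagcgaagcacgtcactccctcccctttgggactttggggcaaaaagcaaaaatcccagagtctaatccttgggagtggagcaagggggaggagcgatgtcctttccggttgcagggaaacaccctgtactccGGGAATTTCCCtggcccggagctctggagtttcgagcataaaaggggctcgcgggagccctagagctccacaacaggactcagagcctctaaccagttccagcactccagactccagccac
Cxcl2 promoter, chr5:90903649-90903948, plus strand: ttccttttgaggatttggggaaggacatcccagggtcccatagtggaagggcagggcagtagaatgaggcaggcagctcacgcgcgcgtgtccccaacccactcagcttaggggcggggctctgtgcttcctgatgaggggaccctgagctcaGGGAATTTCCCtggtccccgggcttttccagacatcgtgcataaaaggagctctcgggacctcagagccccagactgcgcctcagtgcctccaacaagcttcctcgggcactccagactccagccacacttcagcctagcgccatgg
Cxcl3 promoter, chr5:90785851-90786150, plus strand: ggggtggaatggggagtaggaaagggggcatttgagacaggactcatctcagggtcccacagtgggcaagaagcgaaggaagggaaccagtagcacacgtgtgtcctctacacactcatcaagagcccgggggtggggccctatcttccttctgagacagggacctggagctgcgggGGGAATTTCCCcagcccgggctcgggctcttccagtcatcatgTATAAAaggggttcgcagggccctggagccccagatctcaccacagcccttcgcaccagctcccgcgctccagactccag
Cxcl10 promoter, chr5:92348840-92349139, minus strand: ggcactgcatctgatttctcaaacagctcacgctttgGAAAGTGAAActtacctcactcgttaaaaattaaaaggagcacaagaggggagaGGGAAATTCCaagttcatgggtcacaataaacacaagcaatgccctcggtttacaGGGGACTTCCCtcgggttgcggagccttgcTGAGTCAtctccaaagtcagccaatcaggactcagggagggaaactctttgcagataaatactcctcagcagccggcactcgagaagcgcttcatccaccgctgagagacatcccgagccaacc
The capitals in Cxcl1 and Cxcl2, and the upstream capitals in Cxcl3, are an NF-kB match on each strand that overlap by all but the end bases. On the gene's strand these lay at −71 to −62 in Cxcl1, −97 to −88 in Cxcl2 and −73 to −64 in Cxcl3, counting the base at the start as 0, and read GGGAATTTCC in all of them. Cxcl3 also held the TATA box, at −30 to −25. In Cxcl10 the capitals are, from the left, the interferon element core at −213 to −204, an NF-kB match at −159 to −150, a cluster of overlapping NF-kB matches from −104 to −94 and an AP-1 match at −74 to −68. Cxcl9 held no NF-kB match in the window but a TATA box at −195 to −190 and an AP-1 match at 31 to 37, and Cxcl14 held an interferon element core at −172 to −163. Thus 4 of the 6 promoters held an NF-kB match, as did 8.46% of the 32851 promoters in the table; 3.44% held the interferon core, 7.81% the AP-1 motif and 13.6% the TATA box. Over the window, Cxcl1 and Cxcl2 were identical at 55.6% of aligned bases, Cxcl2 and Cxcl3 at 60.3% and Cxcl1 and Cxcl3 at 55.5%. A match describes these letters only.

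Knockdown cells held much less mRNA of the neutrophil-attracting CXC chemokines. Cxcl1, Cxcl2 and Cxcl5 were 22.8-fold, 14.2-fold and 43.3-fold lower than in control cells, Cxcl10 was 2.41-fold lower and Cxcl16 was 1.55-fold lower. All 5 members that passed the filter fell at an adjusted p under 0.05, where 26.8% of all tested genes did. Cxcl2 and Cxcl5, with 2 to 13 counts in the knockdown libraries, passed the filter through the control libraries. Genes that pass in this way can only be called lower, so these calls add nothing to the count of 5. The groups of all 5 members did not overlap in CPM, as in 31.3% of tested genes with the knockdown lower. Cxcl1, Cxcl2 and Cxcl5 were among the 3.54% called at least 8-fold lower. The median log2 fold change of the 5 was −3.77, the value of Cxcl2, against 0.01 over all 13067 tested genes. The other 3 members, Cxcl3, Cxcl9 and Cxcl14, did not pass the filter. In bulk RNA, fewer cells of a type and less RNA per cell cannot be told apart.

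**Figure D1:**
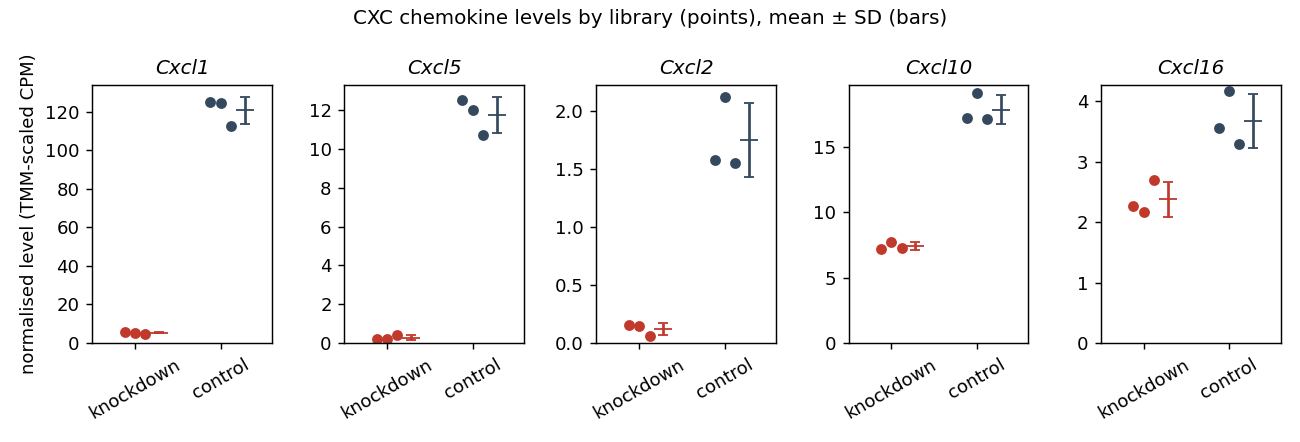
TMM-scaled CPM (vertical axis, own linear scale from 0 in each panel) of Cxcl1, Cxcl5, Cxcl2, Cxcl10 and Cxcl16 in each library, with 3 knockdown libraries left and 3 control libraries right as points and the mean ± SD beside them. The groups do not overlap in any panel, and the gap is widest for Cxcl5 and Cxcl1 and narrowest for Cxcl16.

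Cxcl1 (ENSMUSG00000029380.12, chromosome 5), the main mouse ligand of CXCR2 secreted by stromal cells, was the most abundant CXC chemokine of the control cells. It had 180, 178 and 152 counts in knockdown replicates 1, 2 and 3 and 3717, 3466 and 3339 counts in control replicates 1, 2 and 3. As CPM this was 5.59, 5.35 and 4.89 in knockdown against 124.8, 124.6 and 112.5 in control libraries. Every knockdown library lay far under every control library, and replicates within a group were close. The knockdown mean of 5.28 ± 0.355 CPM against the control mean of 120.6 ± 7.05 CPM (SD, n = 3 each) left 4.38% of the control level in the knockdown (log2 fold change −4.51 ± 0.142 SE, edgeR quasi-likelihood adjusted p = 1.86e-05).

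Cxcl5 (ENSMUSG00000029371.8, chromosome 5), another ELR ligand of CXCR2, showed the largest fold difference of the members in the main fit. With the GC trend of each library removed, Cxcl1 showed the largest. Counts were 6, 7 and 13 in knockdown and 373, 335 and 319 in control libraries, or 0.186, 0.210 and 0.419 CPM against 12.52, 12.04 and 10.75 CPM. Control libraries thus held a moderate level, and the knockdown libraries came within a few-fold of the 3-count floor. The knockdown mean of 0.272 ± 0.128 CPM stood against a control mean of 11.8 ± 0.918 CPM (SD, n = 3 each), with a log2 fold change of −5.42 ± 0.287 SE and an edgeR adjusted p of 3.01e-05.

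Cxcl2 (ENSMUSG00000058427.11, chromosome 5), which macrophages and stromal cells release to recruit neutrophils, was low in both groups. It had 5, 5 and 2 counts in knockdown and 47, 59 and 46 counts in control libraries, or 0.155, 0.150 and 0.0644 CPM against 1.58, 2.12 and 1.55 CPM. Knockdown replicate 3 was under its 3-count floor, and the other two lay just above theirs. The log2 fold change was −3.77 ± 0.379 SE (edgeR adjusted p = 0.000306), from 0.123 ± 0.0511 CPM in knockdown and 1.75 ± 0.322 CPM in control libraries (SD, n = 3 each). Cxcl3 (ENSMUSG00000029379.11, chromosome 5), the closest relative of Cxcl2, had 0 counts in each knockdown library and 0, 1 and 0 counts in control libraries, so no fold is given. The reference transcripts of Cxcl2 and Cxcl3 share a run of 110 identical bases, shorter than a read of 150 bases, and those of Cxcl1 share at most 23 bases with either. The sources used here do not say how reads that match several genes were counted, so the division of counts between Cxcl2 and Cxcl3 is uncertain.

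Cxcl10 (ENSMUSG00000034855.14, chromosome 5), the interferon-inducible ligand of CXCR3, fell by much less than the ELR ligands. It had 232, 258 and 226 counts in knockdown and 514, 533 and 510 counts in control libraries, or 7.21, 7.75 and 7.28 CPM against 17.3, 19.2 and 17.2 CPM. The groups were well apart and each was tight, at 7.41 ± 0.295 CPM in knockdown and 17.9 ± 1.12 CPM in control libraries (SD, n = 3 each). The log2 fold change was −1.27 ± 0.129 SE (edgeR adjusted p = 0.000315), which left 41.5% of the control level. Cxcl9 (ENSMUSG00000029417.10, chromosome 5), which shares the receptor with Cxcl10 and lies beside it, had 0 counts in each knockdown library and 1 count in each control library, under the floor in both groups.

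Cxcl16 (ENSMUSG00000018920.12, chromosome 11), the transmembrane ligand of CXCR6, differed least. It had 73, 72 and 84 counts in knockdown and 106, 116 and 98 counts in control libraries, or 2.27, 2.16 and 2.70 CPM against 3.56, 4.17 and 3.30 CPM. Knockdown libraries were again below all control libraries, but with a gap of less than 1 CPM (2.38 ± 0.287 CPM in knockdown, 3.68 ± 0.446 CPM in control; SD, n = 3 each; log2 fold change −0.63 ± 0.191 SE; edgeR adjusted p = 0.0303). This call was lost in 12 of 18 other settings, among them library totals alone (−0.38, adjusted p = 0.130) and the replicate number as a block (−0.63, adjusted p = 0.0774), so it is the weakest of the 5. Cxcl14 (ENSMUSG00000021508.12, chromosome 13) had 2, 0 and 0 counts in knockdown and 0 counts in each control library, which is too few for a fold.

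The make-up of CXC ligand mRNA differed between the groups as well as its amount. Levels of different genes were compared as the authors' FPKM, which divides by transcript length. Summed over the 8 members, FPKM was 7.58, 7.70 and 7.50 in knockdown and 72.6, 72.7 and 68.0 in control libraries. The ELR ligands made up 44.2, 42.2 and 40.9% of that sum in knockdown libraries and 89.3, 88.2 and 88.4% in control libraries. Cxcl1 on its own gave 41.7, 39.6 and 37.3% in knockdown libraries, against 80.3, 79.2 and 79.7% in control libraries, and Cxcl10 gave 44.7, 47.8 and 46.3% against 9.25, 10.1 and 10.1%. In knockdown cells the order by mean FPKM was Cxcl10 (3.51 ± 0.150), Cxcl1 (3.003 ± 0.184), Cxcl16 (0.843 ± 0.102), Cxcl5 (0.157 ± 0.0723) and Cxcl2 (0.0633 ± 0.0289), while in control cells it was Cxcl1 (56.7 ± 2.16), Cxcl10 (6.99 ± 0.340), Cxcl5 (5.56 ± 0.337), Cxcl16 (1.07 ± 0.112) and Cxcl2 (0.747 ± 0.124; SD, n = 3 each). Cxcl10 thus stood above Cxcl1 in the knockdown and below it in the control, and no 2 neighbours in either order overlapped between libraries.

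**Figure D2:**
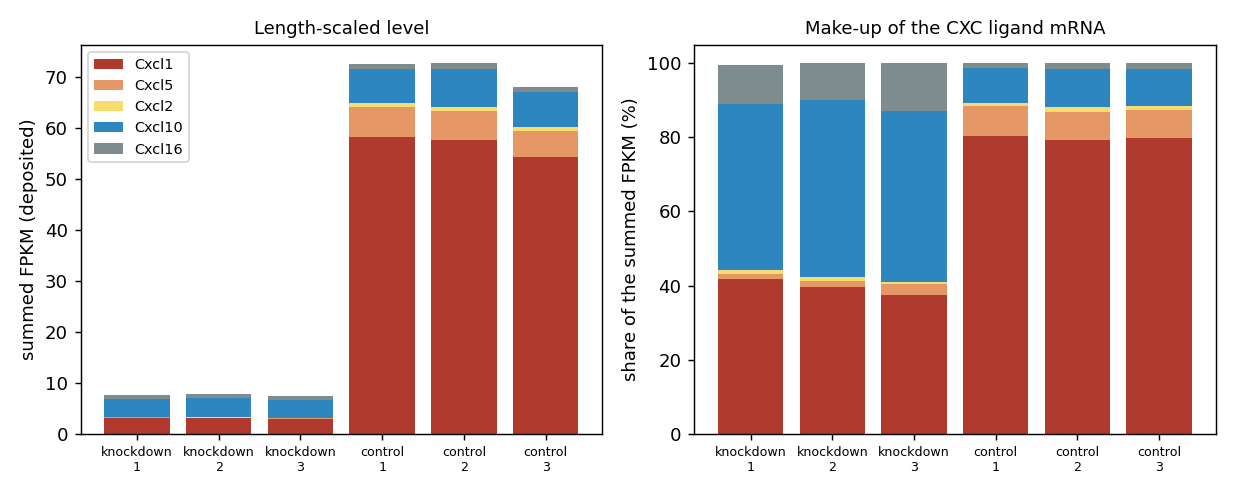
Deposited FPKM of the CXC ligands stacked by gene for each library, as a sum (left) and as a share of that sum in percent (right), with the 3 knockdown libraries left of the 3 control libraries. The summed level is between 7.50 and 7.70 in knockdown and between 68.0 and 72.7 in control libraries, and Cxcl10 takes 44.7 to 47.8% of it in knockdown against 9.25 to 10.1% in control libraries.

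Whether the members moved to different extents was tested on ratios of their counts within a library, which do not depend on scaling between libraries. For all 10 pairs of the 5 tested members, the log2 ratio was compared between groups by an exact two-sided permutation test, whose smallest possible p with 3 against 3 libraries is 0.1. The log2 ratio of Cxcl1 to Cxcl10 was −0.49 ± 0.110 in knockdown and 2.76 ± 0.0858 in control libraries (SD, n = 3 each), a difference of −3.25 at the smallest p the exact test allows (p = 0.1, Benjamini-Hochberg adjusted over the 10 pairs 0.125). The ratio to Cxcl10 also differed by −4.26 for Cxcl5 and by −2.65 for Cxcl2, with groups that did not overlap. Relative to Cxcl16, the differences were −3.89 for Cxcl1, −4.90 for Cxcl5, −3.29 for Cxcl2 and −0.64 for Cxcl10, and Cxcl1 relative to Cxcl5 differed by 1.02, each without overlap and at the same exact p of 0.1. The groups overlapped for Cxcl1 to Cxcl2 (−0.60, exact permutation p = 0.3) and for Cxcl2 to Cxcl5 (1.61, exact permutation p = 0.2, adjusted 0.222). These ratios do depend on base composition, which differed between the groups. With the GC trend of each library removed, the log2 fold change of Cxcl1, −3.74, was lower than that of Cxcl5, −2.95, so the order of this pair turned, and Cxcl10, −0.73, was close to Cxcl16, −0.61. None of these pairs can pass an adjusted threshold of 0.05 in this design. Cxcl2 and Cxcl5 passed the filter through the control libraries, so the direction of their ratios to Cxcl10 and Cxcl16 was fixed in advance. Those ratios are descriptions only and are no test of whether the members moved to different extents.

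Base composition moved with the group in all genes, and the members' transcripts are of low to middle GC content. Among the 13043 tested genes with a reference transcript (99.8%), split into 10 equal bins of GC content, the lowest bin (31.9 to 42.1% GC) had a median log2 fold change of −1.97 and the next 2 bins −1.01 and −0.57. Cxcl5 (37.8% GC) lay in the lowest bin, where 25.5% of genes had a log2 fold change of −3 or less. Cxcl2 (43.6% GC) lay in the next bin, where 6.06% did. Cxcl1 (45.1% GC) and Cxcl10 (46.3% GC) lay in the bin from 44.7 to 46.7%, where the share was 2.07% and the 10th percentile −1.85. Cxcl1 was therefore far below the genes of its own composition, at −4.51, and Cxcl10, at −1.27, was within their range. Cxcl16 (49.8% GC) lay in a bin with a median of −0.02 and a 10th percentile of −0.997.

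**Figure D3:**
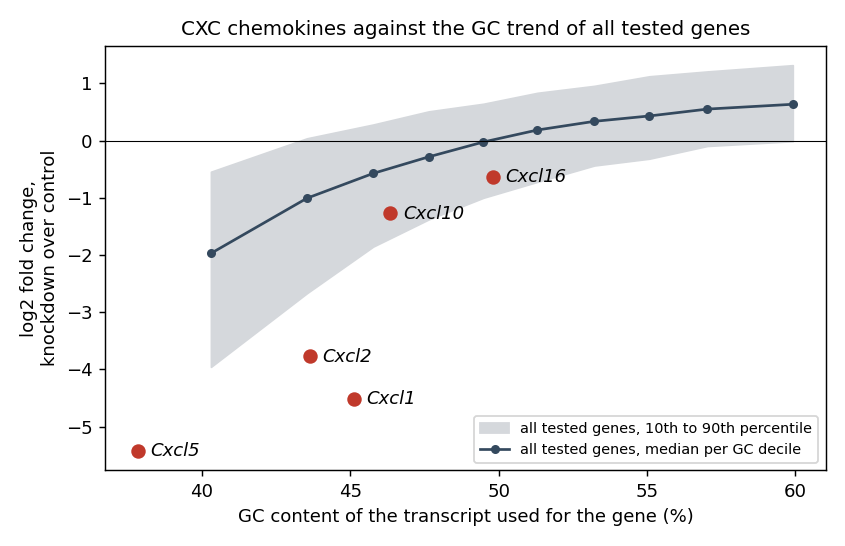
Log2 fold change, knockdown over control, against GC content in percent of the transcript used for each gene, with the median of all tested genes per GC bin (line), their 10th to 90th percentile (grey band) and the 5 tested CXC chemokines (red points). Cxcl1 and Cxcl2 lie under the band, whereas Cxcl10 and Cxcl16 lie inside it. Cxcl5 lies left of where the band begins (40.3% GC), below the 10th percentile of its bin (−3.95).

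The GC trend separated the groups, and whether it is technical or belongs to the knockdown was not tested. Removing it could therefore also remove real change. When the GC trend of each library was removed in the fit, the ELR ligands remained strongly lower. The log2 fold change was then −3.74 ± 0.168 SE for Cxcl1 (edgeR adjusted p = 0.000170), −2.70 ± 0.445 for Cxcl2 (adjusted p = 0.00523) and −2.95 ± 0.316 for Cxcl5 (adjusted p = 0.00108). Cxcl10 kept its call at −0.73 ± 0.159 (adjusted p = 0.0147), and Cxcl16 did not (−0.61, adjusted p = 0.0613). With the trend on transcript length removed too, the values were −3.71, −2.77, −3.19, −0.68 and −0.65 for Cxcl1, Cxcl2, Cxcl5, Cxcl10 and Cxcl16. Without control replicate 2 and with no trend removed, they were −4.49, −3.61, −5.41, −1.21 and −0.53, all past the threshold. With both steps, they were −3.61, −2.41, −2.76, −0.57 and −0.45, all past the threshold but Cxcl16 (adjusted p = 0.0630). The direction was lower in the knockdown for all 5 under each scaling tried, including upper-quartile factors and library totals, which moved the median of all genes to 0.21 and 0.26.

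**Figure D4:**
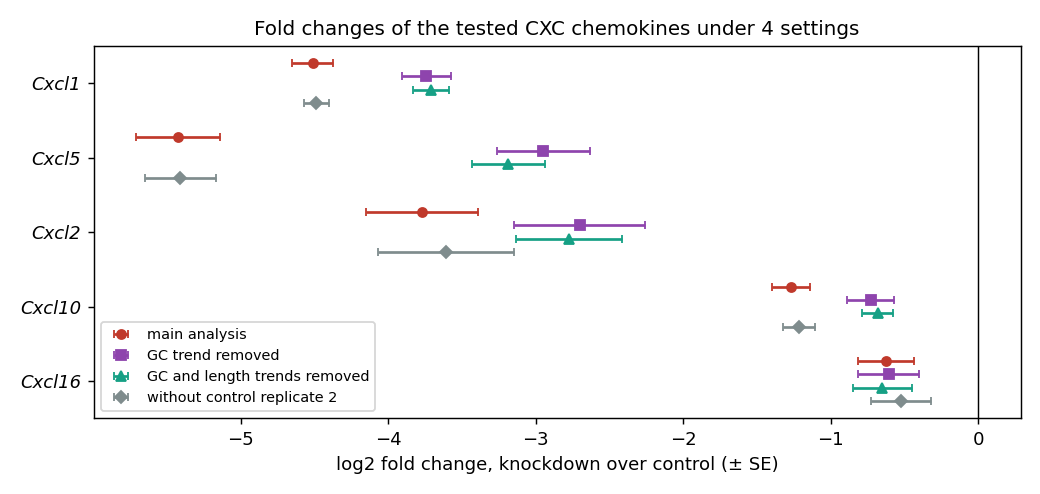
Log2 fold change, knockdown over control, with its SE (horizontal axis) of the 5 tested CXC chemokines in the main analysis, with the GC trend removed, with the GC and length trends removed, and without control replicate 2. Removing the GC trend moves Cxcl5 most, to −2.95, where it is no longer the lowest, and Cxcl1 is then lowest at −3.74.

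The transcripts of the ELR ligands also share a feature of unstable mRNAs. The pentamer ATTTA, the core of AU-rich elements that recruit decay factors, occurred 7 times in the 592-base 3′ UTR of Cxcl1 (11.8 per kb), 11 times in the 734 bases of Cxcl2 (15.0 per kb) and 5 times in the 1111 bases of Cxcl5 (4.50 per kb). Its density in Cxcl1 was above that of 99.6%, in Cxcl2 of 99.8% and in Cxcl5 of 91.4% of 11041 tested genes with a 3′ UTR of at least 100 bases, whose median was 1.34 per kb. Cxcl3 held 7.75 per kb (98.3%). Cxcl10, at 2.74 per kb (76.4%), and Cxcl16, at 1.41 per kb (51.6%), were closer to the median, and Cxcl9 held 1.22 per kb and Cxcl14 none. The pentamer holds only A and T, and these ranks were not matched for GC content, which was 37.8% in Cxcl5. Sites were counted by letters in the transcript used and say nothing of their use in these cells.

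Of the CXC receptors, Ackr3 alone passed the filter, and neither it nor the 2 other CXC ligands tested passed the threshold. Ackr3, the atypical receptor of Cxcl12, had 23, 11 and 9 counts in knockdown and 7, 3 and 11 counts in control libraries (log2 fold change 0.88, edgeR adjusted p = 0.237). Cxcr4, the signalling receptor of Cxcl12, had 0 counts in each knockdown library and 7, 3 and 3 in control libraries, and did not pass the filter. Cxcr5, with at most 2 counts, did not pass it either. Cxcr1, Cxcr2, Cxcr3, Cxcr6 and Ackr1 were not analysed here. Cxcl12, the niche chemokine that retains blood stem cells in marrow, had 12.3 ± 1.604 CPM in knockdown and 14.7 ± 4.13 CPM in control libraries, with overlapping groups (SD, n = 3 each, log2 fold change −0.26 ± 0.237 SE, edgeR adjusted p = 0.406). Cxcl11, annotated as a polymorphic pseudogene, had 5, 15 and 3 counts in knockdown and 18, 14 and 8 in control libraries (−0.94, adjusted p = 0.240), and Cxcl17 had at most 2 counts in any library.

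Of 4 genes of CXCL16 shedding, Adam10, the main constitutive sheddase, was lower at 11.9 ± 1.26 CPM in knockdown and 35.6 ± 6.70 CPM in control libraries (SD, n = 3 each, log2 fold change −1.58, edgeR adjusted p = 0.000595). Rhbdf1, which helps the sheddase ADAM17 mature, was higher (0.64, adjusted p = 0.0372), while Adam17 (−0.62, adjusted p = 0.184) and Rhbdf2 (0.15, adjusted p = 0.678) did not pass the threshold. Neither call held with the GC trend removed, where Adam10 was at −0.08 and Rhbdf1 at −0.04.

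Genes of the signals that act upstream of chemokine transcription moved in both directions. Of 27 tested receptors and adaptors for Toll-like ligands, interleukins and tumour necrosis factor, 7 were lower, 7 higher and 13 not past the threshold (median log2 fold change 0.15), where 26.8% of all tested genes were lower and 21.1% higher (median 0.01). Tlr4, the lipopolysaccharide receptor, was lower at 2.36 ± 0.278 CPM in knockdown and 13.7 ± 1.05 CPM in control libraries (SD, n = 3 each, log2 fold change −2.54, edgeR adjusted p = 4.66e-05), but lost its call once the GC trend was removed (−0.39, adjusted p = 0.103). Tlr3, a sensor of double-stranded RNA, was likewise lower (−2.13, adjusted p = 0.000315), and at −0.14 after that step. Il1rl1, the interleukin-33 receptor, was lower at 12.2 ± 1.39 CPM in knockdown against 49.98 ± 11.3 CPM in control libraries (−2.04, adjusted p = 0.000335) and kept its call without the GC trend (−0.85). Irak4, the kinase that interleukin-1 and Toll-like receptors share, was higher at 19.8 ± 0.773 CPM in knockdown against 13.0 ± 0.676 CPM in control libraries (0.60, adjusted p = 0.00621), and kept its call in all 21 other settings. With the trend removed the list counted 5 lower and 3 higher, where 15.2% of all genes were lower and 16.3% higher. With library totals alone it counted 5 lower and 11 higher, where 2814 of all 13067 tested genes were lower and 4280 higher.

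Among 22 tested NF-kB subunits, kinases and inhibitors, 10 were lower, 5 higher and 7 not past the threshold (median −0.50), beside 26.8% lower and 21.1% higher over all tested genes. Nfkbia, which encodes the inhibitor IκBα and is itself an NF-kB target, was at 24.4 ± 1.19 CPM in knockdown and 64.6 ± 3.39 CPM in control libraries (SD, n = 3 each, log2 fold change −1.40 ± 0.121 SE, edgeR adjusted p = 0.000162). Nfkbiz, an inducible cofactor of NF-kB, was at 3.97 ± 0.826 CPM in knockdown and 13.7 ± 3.97 CPM in control libraries (−1.78, adjusted p = 0.00195). Both kept their calls in all 21 other settings, at −1.69 for Nfkbia and −1.77 for Nfkbiz with the GC trend removed. Tab3, an adaptor of the kinase TAK1, was lower (−2.28, adjusted p = 0.000549; −0.60 with the trend removed), as was Rel, the c-Rel subunit (−1.70, adjusted p = 0.00109), whose call was lost with the trend removed (−0.27). Rela, the p65 subunit, was higher (0.57, adjusted p = 0.0150; −0.08 and not called with the GC trend removed), and Nfkb1 did not pass the threshold (−0.33, adjusted p = 0.403); both were chosen after their values were seen. With the trend removed the list counted 11 lower and 1 higher, with a median of −0.48 (15.2% and 16.3% over all genes). On the log2(FPKM + 1) scale 5 of 21 were lower and 7 higher. On that scale 1993 of all 9804 tested genes were lower and 4009 higher.

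The interferon-gamma list, named for the pathway through which Cxcl9 and Cxcl10 are induced, also holds genes of the type I interferon response. Of its 17 tested genes, 1 was lower, 5 higher and 11 not past the threshold (median 0.08). Over all tested genes, 26.8% were lower and 21.1% higher. The 5 higher genes were Irf7, Irf9, Tyk2, Ifnar1 and Irf3, of which Ifnar1 and Irf3 were named after their values were seen. Jak2, a kinase of the interferon-gamma receptor, was lower at 19.5 ± 2.18 CPM in knockdown and 64.4 ± 3.58 CPM in control libraries (SD, n = 3 each, −1.72, edgeR adjusted p = 0.000123). Irf7, a transcription factor of the type I interferon response, was higher at 217 ± 4.07 CPM in knockdown against 68.3 ± 9.21 CPM in control libraries (1.67, adjusted p = 0.000144), and Irf9, a DNA-binding factor of the type I interferon response, was higher at 87.7 ± 2.75 CPM in knockdown against 49.1 ± 10.1 CPM in control libraries (0.84, adjusted p = 0.00691). These 3 kept their calls with the GC trend removed, at −0.77, 1.15 and 0.64, but Tyk2 (0.80, adjusted p = 0.00470) did not, at 0.26. The receptor genes Ifngr1 and Ifngr2 (−0.04 and 0.24) and the factor gene Irf1 (0.19) did not pass the threshold, and were named after their values were seen. With the trend removed the list counted 2 lower and 4 higher.

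**Figure D5:**
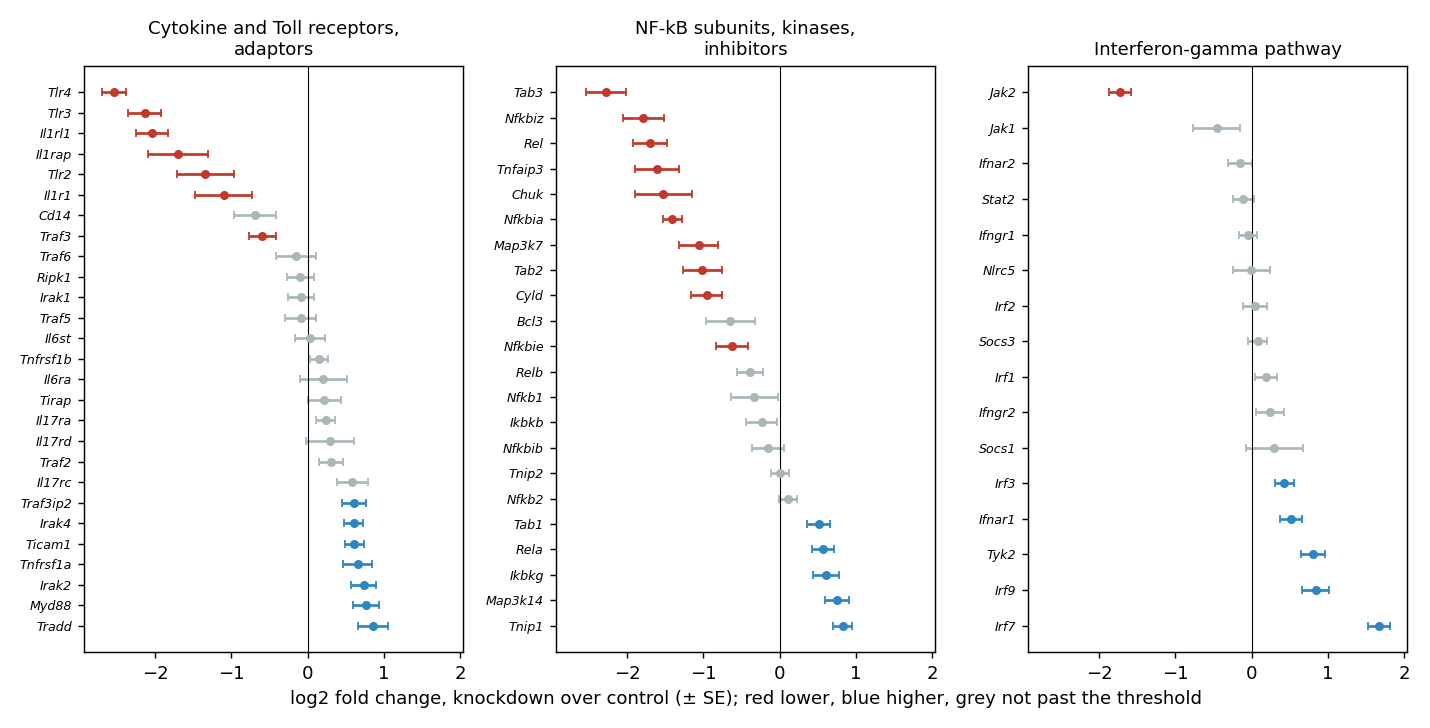
Log2 fold change, knockdown over control, with its SE for the tested genes of the receptor and adaptor list (left, 27 genes), the NF-kB list (middle, 22 genes) and the interferon-gamma list (right, 17 genes, of which 1 that did not pass the threshold is not drawn), each ordered by value. Red marks genes called lower, blue called higher and grey not past the threshold, which gives 7, 10 and 1 lower and 7, 5 and 5 higher from left to right.

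Markers of other cell types were looked at beside these results, since macrophages and endothelial cells also make CXC chemokines. Of 10 macrophage markers, Ptprc, Mrc1 and Tyrobp had at most 3 counts in any library. The list summed to 46.6 to 51.7 CPM in knockdown and 26.6 to 43.3 CPM in control libraries, mostly from Cd68 (48.3 ± 2.58 CPM in knockdown and 35.3 ± 9.66 CPM in control libraries; SD, n = 3 each), a lysosomal protein. Cd14, the other macrophage marker tested, went the other way, at 0.675 ± 0.0882 CPM in knockdown and 1.09 ± 0.189 CPM in control libraries. It did not pass the threshold (−0.69, edgeR adjusted p = 0.0748). With the GC trend removed, 1 of the 2 tested macrophage markers was called lower and 0 higher (median log2 fold change −0.43). With control replicate 2 left out as well, 0 of 3 tested were called lower and 0 higher. Without the filter, the 8 macrophage markers in the count table had a median log2 fold change of −0.75, with 1 lower and 0 higher. In that setting 3618 of all 22030 genes were lower and 2657 higher. Neutrophil markers summed to at most 0.129 CPM in knockdown and 0.302 CPM in control libraries, with S100a8, Ly6g, Elane and Ltf at no more than 3 counts. Lymphocyte markers summed to at most 0.0644 CPM in knockdown and 0.108 CPM in control libraries, with Cd3d, Cd4 and Cd79a at no more than 3 counts. Endothelial markers summed to 14.7 to 16.3 CPM in knockdown and 7.23 to 10.8 CPM in control libraries, and 1 of 3 tested, Vwf, was higher (1.15, edgeR adjusted p = 0.00446), a call that was lost with the GC trend removed (0.63, adjusted p = 0.0603). Of the stromal markers 13 of 14 were tested, 5 were lower and 6 higher, where 26.8% of all tested genes were lower and 21.1% higher. With the GC trend removed, 2 were lower and 4 higher, where 15.2% of all genes were lower and 16.3% higher. Stromal markers summed to 2326 to 2596 CPM in knockdown and 2895 to 4002 CPM in control libraries. The part of any of these cell types in the chemokine results was not tested.

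The genes whose level over the 6 libraries followed Cxcl1 most closely were sought by the root mean square difference of log2 CPM, each gene centred on its own mean. They were Lrrcc1 (0.0781, log2 fold change −4.57), Ift74 (0.110, −4.42) and Ccdc173 (0.118, −4.48). For Cxcl10 they were Lactb2 (0.0510, −1.26), Dpy19l1 (0.0526, −1.26) and Ccnl2 (0.0531, −1.18). The transcripts of Lrrcc1, Ift74 and Ccdc173 had 38.4, 41.6 and 40.5% GC, below the 45.1% of Cxcl1, and with the GC trend removed their log2 fold changes were −2.19, −2.81 and −2.58, against −3.74 for Cxcl1. Of those nearest to Cxcl10, Lactb2 then turned to 0.72 (edgeR adjusted p = 0.0414), Dpy19l1 lost its call (−0.34, adjusted p = 0.216) and Ccnl2 kept it (−1.32), against −0.73 for Cxcl10. With 2 groups of 3, likeness mostly records a similar difference between groups.

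Genes beside the chemokines on the chromosome were counted by starts within 500 kb in the GRCm38 annotation, beside the 26.8% lower and 21.1% higher over all tested genes. Around Cxcl1, Cxcl2, Cxcl3 and Cxcl5, 6 genes outside the members were tested, of which 3 were lower and 3 did not pass the threshold (median log2 fold change −1.38). Ereg, which encodes the growth factor epiregulin, was the one with the smallest p (−2.43, edgeR adjusted p = 0.000295), but stood at −0.22 after removal of the GC trend. The other lower genes, Mthfd2l (−1.92) and Ankrd17 (−1.80), were named after their values were seen. Both kept their calls with the GC trend removed, at −0.80 (edgeR adjusted p = 0.0356) and −1.36 (adjusted p = 0.0478). Mthfd2l kept its call in all 21 other settings and Ankrd17 in 12 of 21. Around Cxcl9 and Cxcl10, 13 were tested, 6 lower and 2 higher (median −0.94), among them Sdad1 (−1.75, edgeR adjusted p = 0.000131) and the nucleoporin gene Nup54 (−1.35, adjusted p = 0.000174). Around Cxcl16, 25 were tested, 1 lower and 8 higher (median 0.37), the lower one being Rabep1 (−2.59, edgeR adjusted p = 0.000211). Around Cxcl14, 2 were tested and 1 was higher. With the GC trend removed, Sdad1, Nup54 and Rabep1 kept their calls, at −1.39, −0.65 and −1.63.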

How the data were processed

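The deposited files are raw gene counts of 22030 genes and the authors' FPKM values of 21879 genes. Libraries were made from 2 μg of total RNA with a stranded mRNA kit and sequenced as paired reads of 150 bases, per the labels' protocols. The submitters' processing notes name HISAT2, MultiQC and GRCm39 as tools and build. The counting tool, strand setting and annotation were not given in the sources used here. All columns matched a library by name.

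Counts of the 6 libraries were tested together with edgeR 4.0.16 in R 4.3.3 (filterByExpr, TMM, robust quasi-likelihood fit without covariates, two-sided), with Benjamini-Hochberg adjustment over 13067 tested genes and a threshold of 0.05. The 3 members under the filter got no test. Levels are TMM-scaled CPM, a 3-count floor was used, and FPKM served to compare genes and, as log2(FPKM + 1) or log2(FPKM + 0.1) in limma 3.58.1, as alternatives, on which scale the fold change of a low gene is understated. SEs were obtained by dividing a log2 fold change by the square root of its F statistic. The procedure was tested on simulated data, which held no GC trend between the groups and no outlying library. Other settings were DESeq2 1.42.0, limma-voom, RLE and upper-quartile factors, library totals, no filter, a 5 CPM filter, the replicate number as a block, each library left out in turn, and loess offsets (span 0.3) on transcript GC content alone or with length.

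Transcripts and gene positions came from GENCODE M21 on GRCm38, an earlier build than that of the submitters, and served for GC content, length, 3′ UTR letters and neighbours only. A gene was represented by 1 transcript, which need not be the one expressed. Promoters came from RefSeq. The planned comparison of protein sequences was not made. The members and gene lists were chosen with earlier results of these data known, so list counts are descriptions. The value of 1 list gene is not reported here. The text names the members, Riok3, up to 4 tested genes of smallest p per list, all CXC receptors, the 3 nearest patterns to Cxcl1 and to Cxcl10, and the 4 neighbours of smallest p. The 3-count floor covers counting error only. Further genes are marked in the text as named after their values were seen.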

Additional observations from a re-analysis of the deposited data

How the results depend on the processing

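Cxcl1, Cxcl5 and Cxcl10 were called lower in all 21 alternatives and Cxcl2 in all 18 that tested it. Log2 fold changes ranged from −4.56 to −3.61 for Cxcl1, from −5.85 to −2.51 for Cxcl5, from −1.30 to −0.57 for Cxcl10 and from −3.95 to −0.71 for Cxcl2, the last value on the log2(FPKM + 1) scale. Cxcl16 kept its call in 6 of 18 alternatives and ranged from −0.72 to −0.17 (adjusted p 0.0110 to 0.233). It lost the call when knockdown replicate 1, 2 or 3 or control replicate 1 was left out (adjusted p 0.108, 0.123, 0.0517 and 0.0628). The 6266 changed genes became 9477 with limma-voom, 4118 with the GC offset and 3101 with the GC offset and replicate block. Leaving out 1 library gave 4340 to 9592 genes and 4 to 5 CXC members, and 9592 came without control replicate 2. The number of changed members was 3 under the 5 CPM filter, 3 with log2(FPKM + 1) and 3 with log2(FPKM + 0.1), since only 3 members were tested there. Changed genes that were lower made up 56.0% in the main fit, 43.8% with upper-quartile factors, 39.7% with library totals and 33.2% with log2(FPKM + 1).

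Same-numbered libraries showed no sign of pairing, as their deviations from the group means correlated at −0.08, 0.04 and 0.05. With 3 libraries per group and control replicate 2 apart from the others, this check cannot exclude a shared batch or culture. With the replicate number as a block, 5615 genes and 4 CXC members were called, and of the 5 members Cxcl16 was the one lost. The other 4 kept their calls with the block. Depth limits Cxcl3, Cxcl9 and Cxcl14, whose levels were under 3 counts in every library, and makes the size of the drop in Cxcl2 and Cxcl5 imprecise.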

Other observations

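Factors that bind AU-rich cytokine transcripts or degrade them were also measured. Of 22 tested genes of mRNA decay and stability, 14 were lower in the knockdown, 1 was higher and 7 did not pass the threshold (median log2 fold change −1.16, against 0.01 over all tested genes, of which 26.8% were lower and 21.1% higher). Tial1 (−1.63, edgeR adjusted p = 7.48e-05), Rc3h2, which encodes Roquin-2 (−2.05, adjusted p = 8.95e-05), and Cnot6, a deadenylase subunit (−2.12, adjusted p = 0.000105), were among the lower ones. With the GC trend removed they were at 0.05, 0.36 and −0.06, without a call, and the list then counted 4 lower and 3 higher with a median of −0.01, where 15.2% of all genes were lower and 16.3% higher. Arid5a, which stabilises interleukin-6 mRNA, was higher at 11.4 ± 1.31 CPM in knockdown and 3.69 ± 0.330 CPM in control libraries (SD, n = 3 each, 1.63, edgeR adjusted p = 0.000285), and kept its call with the trend removed (0.99). Zfp36, the tristetraprolin gene and the best known factor for the ATTTA pentamer, did not pass the threshold (−0.19, adjusted p = 0.392), and Zc3h12a, the ribonuclease Regnase-1, was lower (−1.26, adjusted p = 0.00257; −1.81 with the GC trend removed); both were named after their values were seen. Tnfaip3, which encodes the NF-kB inhibitor A20, was likewise chosen after the values were seen and was lower at 6.68 ± 0.484 CPM in knockdown and 20.4 ± 7.39 CPM in control libraries (SD, n = 3 each, −1.61, edgeR adjusted p = 0.00375), with its call kept in all 21 other settings.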
